A study of Rattus norvegicus with 46 samples.

Results

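The 116 genes described here are the rat genes of the array whose symbols start with Fbxl, Fbxo, Fbxw, Klhl or Trim and a number. They were chosen by symbol from 14317 genes with 1 symbol, whatever their values, and Fbxo32, Fbxo30, Fbxo21 and Trim63, the best known ligase genes of muscle wasting, were left out of the list. They comprised 13 Fbxl, 24 Fbxo, 7 Fbxw, 30 Klhl and 42 Trim genes. Where a gene had several probe sets, as 2 of the 116 did, the probe set with the highest mean over the 46 arrays was used.

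RNA of the proximal gastrocnemius, a calf muscle, was measured on single-colour Affymetrix arrays with 1 array per leg in 23 female Sprague-Dawley rats. All rats were under isoflurane, were paralysed by infusion of α-cobrotoxin, which blocks the acetylcholine receptor where nerve meets muscle, and were mechanically ventilated. A lever bent and stretched the left ankle passively 13.3 times a minute (loaded leg), through the 6 h of the briefest stay and for 12 h of each day in longer ones, while the other leg was not moved (unloaded leg). The groups were loaded legs and unloaded legs of rats kept for 6 h to 4 d (n = 13 each), 5 to 8 d (n = 4 each) or 9 to 14 d (n = 6 each). No rat without paralysis, anaesthesia or ventilation was measured, so every change with duration is relative to rats already paralysed for 6 h to 4 d, and the unloaded leg belonged to the same treated animal as the loaded leg.

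Ligases tag proteins with ubiquitin, often for destruction, and most of the genes here encode the part of a ligase that picks the target. F-box proteins (Fbxl with leucine-rich repeats, Fbxw with WD repeats, Fbxo with other domains) bind Skp1 and bring targets to the scaffold Cul1. Kelch-like proteins bind Cul3 through a BTB domain and targets through Kelch repeats. Most Trim proteins carry a RING domain and act as ligases themselves, while a few, Trim16, Trim29 and Trim44 among them, lack that domain. Several take part in antiviral defence or, as the MuRF proteins do, in the sarcomere of muscle.

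Values are log2 expression values, on which 1 unit is a doubling of signal. Array medians lay between 6.07 and 6.20, and 82 of the 116 genes exceeded the median of their own array on at least 4 arrays, while 34 did not. Values of different probe sets are not compared as levels of transcript. The tissue label was checked on its markers, and the mean over 7 skeletal muscle fibre genes lay between 12.89 and 13.78 on every array. A principal component holding 38.8% of the variance ran with duration, and rats 35 and 37 of the 6 h to 4 d window (rats go by their unloaded leg's number) lay toward the later windows. The labels carry a number that was read as 1 of 5 date codes, and what step it dates is not stated. Of these codes, only code 3 held rats of all 3 windows (4, 2 and 4 rats). Codes 1, 2 and 4 held only rats of 6 h to 4 d, and code 5 held 2 rats each of the later windows. The counts of all members called are therefore given as measured, with the date code as a block and within code 3 alone.

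Many of these genes differed between the windows, about as often as genes in general. Most rats of 6 h to 4 d carried date codes that held no later rat, so window and date code largely overlapped. In loaded legs at 9 to 14 d against 6 h to 4 d, 34 of the 116 genes passed an adjusted p of 0.05 (limma with Benjamini-Hochberg adjustment over all 14317 genes), 22 of them higher and 12 lower. That was 29.3% of the members, beside 30.8% of all genes in the same comparison (19% higher and 11.8% lower). In unloaded legs 45 members passed, 22 higher and 23 lower, or 38.8% beside 35.9% of all genes (19.4% higher and 16.5% lower). The members' median log2 change was 0.02 in loaded and -0.02 in unloaded legs, beside -0.03 and -0.06 over all genes. In bulk muscle, fewer cells of a type and less RNA per cell cannot be told apart.

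Changes were already present at 5 to 8 d. Against 6 h to 4 d, 30 members passed in loaded legs (19 higher and 11 lower, 25.9% beside 25.1% of all genes, of which 16.8% higher and 8.27% lower) and 22 in unloaded legs (12 higher and 10 lower, 19% beside 22.6% of all genes, of which 14.6% higher and 8.03% lower). Between 9 to 14 d and 5 to 8 d no member passed in either leg with limma, beside 0.0838% of all genes in loaded legs (0.0629% higher and 0.021% lower) and 0.119% in unloaded legs (0.0838% higher and 0.0349% lower). Before adjustment, 14 members in each leg had a p under 0.05. That was 12.1% of the members, beside 11.4% of all genes in loaded and 13.1% in unloaded legs. After adjustment Klhl38 came nearest in loaded legs (0.0925) and Klhl5 in unloaded legs (0.0861).

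These counts differed by over 1.5 times between settings of the date code. The comparison with 6 h to 4 d rests, with the code as a block, on the 4 early rats of code 3. The other codes hold only early rats or none. Rats 35 and 37 are among these 4. The block and code 3 alone are therefore close to the same comparison. The part of rats 35 and 37 in these counts cannot be told apart from that of the code. With the code as a block, 16 members passed in loaded and 23 in unloaded legs at 9 to 14 d, and 9 and 8 at 5 to 8 d. Within code 3 alone 5 passed in loaded and 9 in unloaded legs at 9 to 14 d, and 0 in either leg at 5 to 8 d, where only 2 rats of that window remained. Without rats 35 and 37 the counts were 39 in loaded and 49 in unloaded legs at 9 to 14 d, and 37 and 30 at 5 to 8 d. The shares of all genes under these settings are not given here. These counts therefore do not set the members apart from other genes.

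By family, no Fbxl gene rose and no Fbxw gene fell past the threshold in either leg and either later window. Of the 13 Fbxl genes, 2 fell in loaded and 3 in unloaded legs at 9 to 14 d, and their median log2 changes were -0.02 and -0.18. The 7 Fbxw genes gave 3 rises in loaded legs and 1 in unloaded legs, with medians of 0.15 and 0.16. Over these comparisons 14.6% to 19.4% of all genes rose and 8.03% to 16.5% fell, so 0 rises among 13 genes and 0 falls among 7 are near the background. The unloaded median of the Fbxw genes was -0.043 with the date code as a block and -0.015 within code 3. The other families moved in both directions: Fbxo genes gave 6 rises and 1 fall in loaded legs and 6 and 4 in unloaded legs (medians -0.01 and -0.03), and Klhl genes 7 and 6 in loaded and 7 and 6 in unloaded legs (medians 0.06 and 0.04). Of the 42 Trim genes, 6 rose and 3 fell in loaded legs, and 8 rose and 10 fell in unloaded legs (medians -0.00 and -0.07).

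**Figure D1:**
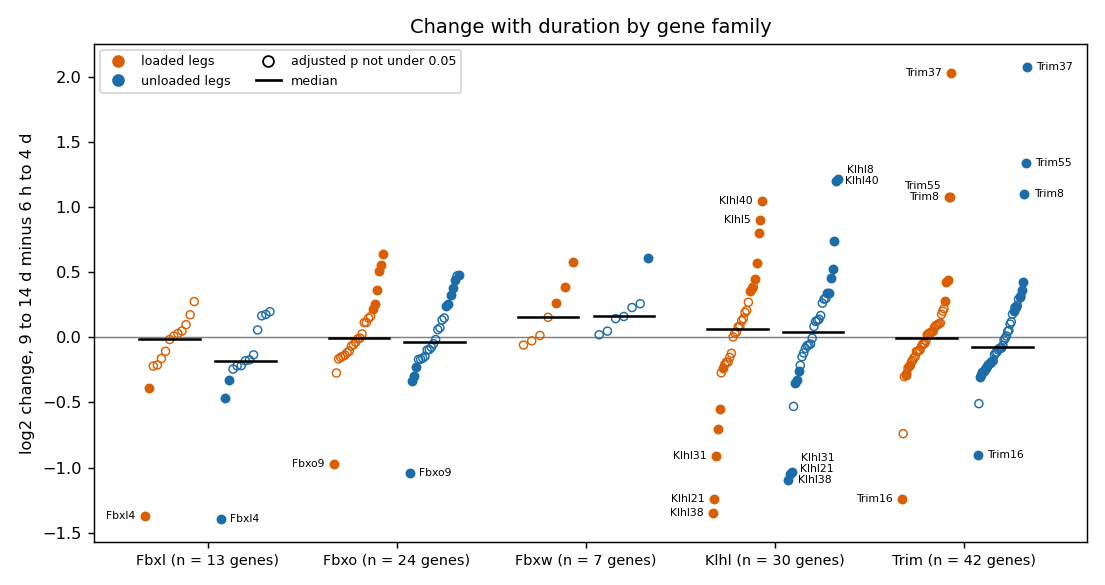
Log2 change from 6 h to 4 d to 9 to 14 d (y axis) of each of the 116 genes, by family (x axis), loaded legs in orange on the left and unloaded legs in blue on the right of each family; filled points passed an adjusted p of 0.05 and bars mark the family medians. Family medians lie between -0.18 and 0.16, and a few single genes stand far from them, with Trim37 highest at 2.03 in loaded and 2.08 in unloaded legs.

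Large and small changes were both among the calls. Among members whose 6 group means all lay above the highest array median, 8 passed with at least a 2-fold change in loaded legs (4 higher and 4 lower) and 10 in unloaded legs (5 and 5) at 9 to 14 d. These were 6.9% and 8.62% of the 116 members, beside 3.21% of all genes in loaded legs (1.84% higher and 1.37% lower) and 3.23% in unloaded legs (1.99% higher and 1.24% lower), a difference that was not tested. A log2 change under 0.5 in size made up 15 of the 34 calls in loaded legs (12.9% of the members beside 15.4% of all genes) and 31 of the 45 calls in unloaded legs (26.7% beside 20.1%). In both legs 23 members passed in the same direction, which is 67.6% of the loaded and 51.1% of the unloaded calls, or 19.8% of the members beside 24% of all genes. The 16 that rose in both legs were Fbxo17, Fbxo22, Fbxo33, Fbxo48, Fbxw17, Klhl5, Klhl6, Klhl8, Klhl29, Klhl40, Klhl41, Trim8, Trim37, Trim44, Trim55 and Trim80, and the 7 that fell were Fbxl4, Fbxo9, Klhl21, Klhl31, Klhl38, Trim16 and Trim67. The values of the 9 to 14 d rats lay wholly outside those of the 6 h to 4 d rats for 5 members in loaded legs (4.31% beside 4.77% of all genes, of which 3.46% higher and 1.31% lower) and for 11 in unloaded legs (9.48% beside 6.62%, of which 4.85% higher and 1.77% lower).

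The Kelch-like genes of muscle went in opposite directions. Klhl40 and Klhl41, whose human genes are mutated in nemaline myopathy, encode sarcomere proteins that stabilise nebulin of the thin filament, and Klhl40 also stabilises leiomodin 3. Klhl31, which is needed for normal muscle growth in mice, and Klhl38 are further Kelch-like genes of striated muscle. Klhl40 and Klhl41 rose in both legs, while Klhl31 and Klhl38 fell.

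The 250 bases before the annotated start of Klhl40, Klhl41 and Klhl31 follow, from RefSeq on build GRCr8, 5′ to 3′ on the gene's strand. Capitals mark the letters CAGCTG (an E-box, the kind of site that MyoD-type factors bind). They also mark CTA, any 4 bases and TAG (called the MEF2 letters here, a looser pattern than the core letters that MEF2 factors bind). Klhl40 and Klhl41 were picked because their windows hold both kinds of letters, and Klhl31 was added as a muscle Kelch-like gene that fell. Klhl38, which also fell, had no promoter window to search.
Klhl40 (chr8:130318543-130318792, + strand): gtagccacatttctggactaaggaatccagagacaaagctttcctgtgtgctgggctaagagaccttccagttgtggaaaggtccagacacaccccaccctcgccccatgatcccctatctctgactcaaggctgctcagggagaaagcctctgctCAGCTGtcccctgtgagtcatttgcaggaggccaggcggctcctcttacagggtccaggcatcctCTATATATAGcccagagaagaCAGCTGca
Klhl41 (chr3:74841868-74842117, + strand): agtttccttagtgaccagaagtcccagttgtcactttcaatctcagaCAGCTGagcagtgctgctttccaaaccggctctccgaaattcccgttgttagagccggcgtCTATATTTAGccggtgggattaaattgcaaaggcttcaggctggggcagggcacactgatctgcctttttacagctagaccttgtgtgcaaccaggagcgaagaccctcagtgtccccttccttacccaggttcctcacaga
Klhl31 (chr8:87395628-87395877, + strand): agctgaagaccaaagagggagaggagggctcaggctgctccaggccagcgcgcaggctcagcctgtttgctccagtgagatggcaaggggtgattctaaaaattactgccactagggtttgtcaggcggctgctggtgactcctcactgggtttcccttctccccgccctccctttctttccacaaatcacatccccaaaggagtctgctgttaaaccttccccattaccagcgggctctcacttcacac
Both kinds of letters stand before the starts of Klhl40 and Klhl41, which were picked for them, and neither stands in the window of Klhl31. This contrast therefore says nothing of the direction of change. Promoter windows of 300 bases (250 before the start and 50 after it) were matched for 99 of the 116 members and searched on both strands. CAGCTG occurred in 18.2% of the members' windows, beside 15.1% of all 27456 windows, and the MEF2 letters in 5.05% beside 3.83%. By call in unloaded legs at 9 to 14 d, CAGCTG occurred in 23.8% of 21 windows of members that rose. It occurred in 10% of 20 that fell (Klhl21 and Klhl36) and 19% of 58 that did not pass. The MEF2 letters occurred in 9.52%, 0% and 5.17% of these, and no difference was tested. Klhl40 and Klhl41 were the 2 members with both, which is 2.02% of the 99 beside 0.47% of all windows. A match is a run of letters and not a measured binding site, and its absence from a window says nothing of the factor.

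Klhl40 in loaded legs lay between 9.11 and 11.16 (median 9.60) at 6 h to 4 d, at 11.91, 10.71, 11.23 and 11.12 at 5 to 8 d, and between 10.51 and 11.37 (median 10.74) at 9 to 14 d. In unloaded legs it lay between 9.02 and 10.73 (median 9.86), at 11.71, 11.15, 11.27 and 11.11, and between 10.85 and 11.59 (median 11.02) in the same windows. All later unloaded legs were above all early ones, while in loaded legs rat 37 of the early window lay among the later ones. At 5 to 8 d the log2 change was 1.47 ± 0.27 in loaded legs (SE, 2.78-fold, limma adjusted p = 3.92e-04) and 1.43 ± 0.22 in unloaded legs (2.70-fold, 7.05e-05). At 9 to 14 d it was 1.05 ± 0.24 in loaded legs (2.06-fold, 0.00153) and 1.20 ± 0.19 in unloaded legs (2.30-fold, 4.44e-05). The later window did not pass against the middle one, with changes of -0.43 in loaded legs (adjusted p = 0.674) and -0.23 in unloaded legs (0.731). For Klhl40 the date code as a block ended the loaded call at 9 to 14 d (0.40, adjusted p = 0.378) and left the unloaded one (0.76, 0.0248). Within code 3 the changes were 0.31 in loaded and 0.68 in unloaded legs, and neither passed.

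Klhl41 spread little between rats. Its loaded legs ran from 12.12 to 12.72 (median 12.34) at 6 h to 4 d, stood at 13.17, 13.07, 13.24 and 13.14 at 5 to 8 d, and ran from 12.67 to 13.12 (median 12.91) at 9 to 14 d. Its unloaded legs ran from 12.19 to 12.50 (median 12.30), stood at 13.15, 12.48, 12.99 and 13.02, and ran from 12.52 to 13.00 (median 12.75). In loaded legs the middle window was wholly above the early one, and in unloaded legs the last window was. The log2 change at 5 to 8 d was 0.81 ± 0.09 in loaded legs (1.75-fold, limma adjusted p = 3.31e-06) and 0.60 ± 0.10 in unloaded legs (1.51-fold, 1.30e-04). By 9 to 14 d it was 0.57 ± 0.08 in loaded legs (1.49-fold, 7.71e-06) and 0.46 ± 0.09 in unloaded legs (1.37-fold, 2.49e-04). With the block the changes at 9 to 14 d were 0.49 in loaded and 0.37 in unloaded legs, both still past the threshold, and within code 3 they were 0.51 and 0.37, neither of which passed.

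Klhl31 moved the other way and varied more. In loaded legs it lay between 9.58 and 11.74 (median 11.42) at 6 h to 4 d, at 9.79, 9.24, 9.52 and 9.90 at 5 to 8 d, and between 9.48 and 10.83 (median 10.35) at 9 to 14 d. Unloaded legs lay between 10.21 and 11.66 (median 11.23), at 10.27, 10.28, 9.45 and 9.67, and between 9.24 and 10.82 (median 10.23). The windows overlapped in both legs, and rats 35 and 37 had the lowest early values (10.50 and 9.58 in loaded, 10.21 and 10.48 in unloaded legs). The log2 change was -1.55 ± 0.31 in loaded legs (2.93-fold lower, limma adjusted p = 7.35e-04) and -1.23 ± 0.26 in unloaded legs (2.34-fold lower, 0.00142) at 5 to 8 d. In the last window it was -0.91 ± 0.27 in loaded legs (1.88-fold lower, 0.0120) and -1.03 ± 0.23 in unloaded legs (2.05-fold lower, 0.00115). The block ended both calls of Klhl31 at 9 to 14 d (-0.56 in loaded legs with adjusted p = 0.268, -0.77 in unloaded legs with 0.0996), neither passed within code 3 (-0.65 with 0.396 in loaded, -0.995 with 0.111 in unloaded legs), and the block ended the unloaded call at 5 to 8 d (-0.99, 0.128).

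Klhl38, a muscle gene whose protein is little characterised, was lower at 9 to 14 d than at 6 h to 4 d in both legs. Against 5 to 8 d its change at 9 to 14 d did not pass in either leg. Its loaded legs ran from 11.50 to 12.15 (median 11.90) at 6 h to 4 d, stood at 11.54, 11.45, 11.39 and 11.29 at 5 to 8 d, and ran from 9.74 to 11.31 (median 10.45) at 9 to 14 d. Its unloaded legs ran from 11.51 to 12.33 (median 11.94), stood at 11.11, 10.99, 11.56 and 11.65, and ran from 10.16 to 11.32 (median 11.02). By the last window every leg was below every early leg of the same side. That change was -1.35 ± 0.16 in loaded legs (2.55-fold lower, limma adjusted p = 9.49e-07) and -1.09 ± 0.17 in unloaded legs (2.13-fold lower, 3.34e-05), and with the block it was -1.15 and -1.09, both past the threshold. Within code 3 Klhl38 did not pass in loaded legs (-1.09, 0.0716) and passed in unloaded legs (-0.87, 0.00751). At 5 to 8 d the loaded change of -0.47 did not pass (0.0655), and the unloaded change of -0.60 passed at 0.0313 but not without rat 41 or rat 43.

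Among the other Kelch-like genes, Klhl8 rose and Klhl21 and Klhl23 fell. Klhl8 is known for the turnover of rapsyn, which anchors acetylcholine receptors at the nerve-muscle junction. In loaded legs Klhl8 lay between 7.15 and 8.03 (median 7.71) at 6 h to 4 d, at 8.12, 8.94, 8.37 and 8.17 at 5 to 8 d, and between 7.94 and 9.17 (median 8.37) at 9 to 14 d. The unloaded values lay between 6.91 and 8.34 (median 7.70), at 8.07, 8.53, 8.36 and 8.52, and between 8.06 and 9.69 (median 8.84). The 9 to 14 d legs overlapped the early ones on both sides, where rats 35 and 37 had the highest early values. The change at 9 to 14 d was 0.80 ± 0.16 in loaded legs (1.74-fold, limma adjusted p = 3.87e-04) and 1.22 ± 0.20 in unloaded legs (2.32-fold, 6.66e-05). Klhl8 passed with the block in both legs (0.63 in loaded and 0.90 in unloaded legs), and within code 3 in unloaded legs (1.03, adjusted p = 0.0268) but not in loaded legs (0.64, 0.160).

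Klhl21 takes part in cell division in human cells, as a Cul3 adaptor. Its loaded legs ran from 9.19 to 9.72 (median 9.47) at 6 h to 4 d, stood at 8.54, 9.05, 8.61 and 8.56 at 5 to 8 d, and ran from 7.90 to 8.70 (median 8.10) at 9 to 14 d. Its unloaded legs ran from 9.20 to 9.75 (median 9.38), stood at 8.20, 9.13, 8.87 and 9.65, and ran from 8.03 to 8.91 (median 8.33). By the last window every leg was below every early leg of the same side, those of rats 35 and 37 included. The change was -1.24 ± 0.12 in loaded legs (2.36-fold lower, limma adjusted p = 6.21e-08) and -1.05 ± 0.15 in unloaded legs (2.07-fold lower, 8.83e-06). Klhl21 also passed with the block (-1.14 in loaded and -1.23 in unloaded legs) and within code 3 (-1.15 and -1.10). At 5 to 8 d it passed in loaded legs (-0.77, 2.46e-04) and was -0.46 in unloaded legs, with an adjusted p of 0.0531.

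Klhl23, of which less is known, was lowest in the middle window. Its loaded legs at 5 to 8 d stood at 6.90, 8.13, 8.24 and 8.46 and its unloaded legs at 7.38, 9.06, 7.51 and 7.56. The change at 5 to 8 d was -1.16 ± 0.27 in loaded legs (2.24-fold lower, limma adjusted p = 0.00298) and -1.17 ± 0.28 in unloaded legs (2.25-fold lower, 0.00422), and with the block it passed in neither leg (-1.05 and -0.69). At 9 to 14 d the change was -0.71 in loaded legs (0.0256, which did not pass without rat 45 or rat 49, or with the block) and -0.53 in unloaded legs (0.0927).

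Changes of other Kelch-like genes were under 1 unit. Klhl24, which acts on intermediate filaments in human skin, changed at 5 to 8 d by -0.46 in loaded legs (limma adjusted p = 0.0161) and by -0.42 in unloaded legs (0.0162). Klhl5 was near the array medians, so no fold is given; its log2 change at 9 to 14 d was 0.90 in loaded legs (5.08e-04) and 0.74 in unloaded legs (1.19e-04). Klhl20, a Cul3 adaptor, passed at 5 to 8 d only, by 0.53 in loaded legs (0.00294) and 0.54 in unloaded legs (0.0143). Klhl22, a Cul3 adaptor of cell division in human cells, passed only in loaded legs at 5 to 8 d (0.45, 0.0238), and not without rat 41, 53 or 55, with the block, or after cyclic loess normalisation. Klhl25 apart, the other calls of the family at 9 to 14 d were rises of Klhl29 (0.38 in loaded legs with 0.0233, 0.53 in unloaded legs with 0.0310) and of the dim Klhl6 (0.45 with 0.00108, 0.34 with 0.0345). In loaded legs alone Klhl42 passed at 0.35 (0.00771) and the dim Klhl1 at -0.23 (0.0280), and in unloaded legs alone Klhl12 passed at 0.34 (0.0485), Klhl26 at -0.26 (0.0018), Klhl36 at -0.35 (9.01e-04) and Klhl24 at -0.33 (0.0204).

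**Figure D2:**
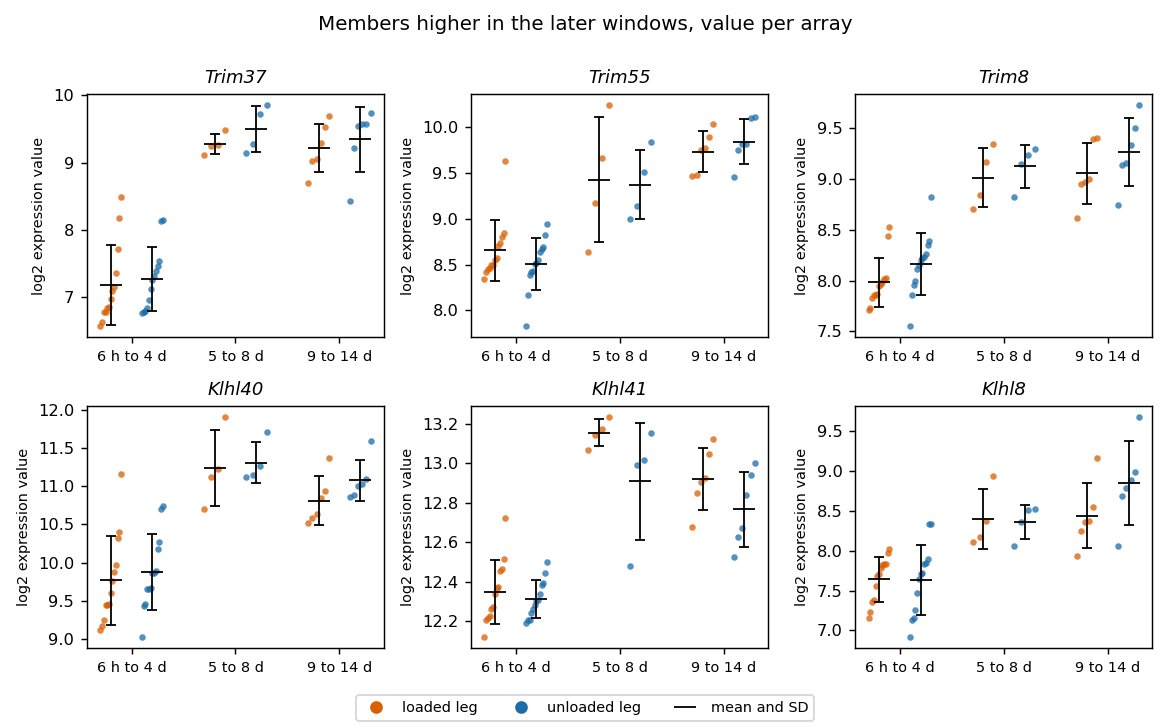
Log2 value of each array (y axis) of Trim37, Trim55, Trim8, Klhl40, Klhl41 and Klhl8 by window (x axis), loaded legs in orange left of unloaded legs in blue, with group means and SD bars. Trim37 lies at 6.57 to 8.48 in early loaded legs and at 8.43 or more in all later legs of both sides.

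The Trim genes held the largest rise. Trim37, whose human gene is mutated in Mulibrey nanism, a growth disorder, lay in loaded legs between 6.57 and 8.48 (median 6.97) at 6 h to 4 d, at 9.12, 9.48, 9.25 and 9.25 at 5 to 8 d, and between 8.70 and 9.69 (median 9.17) at 9 to 14 d. On the unloaded side values lay between 6.77 and 8.14 (median 7.25), at 9.15, 9.28, 9.72 and 9.85, and between 8.43 and 9.74 (median 9.56). No later leg overlapped the early legs of its side. Rats 35 and 37 held the highest early values, 8.18 and 8.48 in loaded and 8.13 and 8.14 in unloaded legs, where the other 11 rats did not exceed 7.71 in loaded and 7.53 in unloaded legs. The change was 2.09 ± 0.27 in loaded legs (4.26-fold, limma adjusted p = 1.00e-05) and 2.23 ± 0.24 in unloaded legs (4.70-fold, 1.19e-06) at 5 to 8 d. At 9 to 14 d it was 2.03 ± 0.23 in loaded legs (4.08-fold, 5.50e-07) and 2.08 ± 0.21 in unloaded legs (4.22-fold, 8.47e-08). Trim37 passed at 9 to 14 d with the block (1.39 in loaded and 1.73 in unloaded legs) and within code 3 (1.39 and 1.87).

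Trim55 encodes MuRF2, a close relative of the atrophy ligase MuRF1 that sits at the sarcomere. In loaded legs Trim55 lay between 8.35 and 9.63 (median 8.55) at 6 h to 4 d, at 8.64, 10.24, 9.66 and 9.17 at 5 to 8 d, and between 9.47 and 10.03 (median 9.76) at 9 to 14 d. In unloaded legs it lay between 7.83 and 8.94 (median 8.52), at 9.51, 9.84, 9.14 and 9.00, and between 9.46 and 10.12 (median 9.81). The later unloaded legs were all above the early ones, and in loaded legs rat 37 of the early window, at 9.63, lay among the last ones. The change at 9 to 14 d was 1.08 ± 0.18 in loaded legs (2.11-fold, limma adjusted p = 6.57e-05) and 1.34 ± 0.14 in unloaded legs (2.52-fold, 1.10e-07), and with the block it was 0.89 and 1.21, both past the threshold. Within code 3 Trim55 did not pass in loaded legs (0.91, 0.177) and passed in unloaded legs (1.18, 0.00278). At 5 to 8 d the loaded call (0.77, 0.00741) was lost without rat 43 and with the block.

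Trim54, which encodes MuRF3, did not pass in either leg at 9 to 14 d, with changes of 0.11 in loaded legs (adjusted p = 0.462) and 0.12 in unloaded legs (0.383). The early legs ran from 11.26 to 11.80 loaded and from 11.13 to 11.71 unloaded, and the last ones from 11.30 to 12.05 loaded and from 11.29 to 11.95 unloaded, so the windows overlapped on both sides.

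Trim8, which acts on NF-kB signalling and on SOCS1, rose in both legs. Its loaded legs ran from 7.71 to 8.53 (median 7.95) at 6 h to 4 d, stood at 8.70, 9.34, 9.16 and 8.84 at 5 to 8 d, and ran from 8.62 to 9.40 (median 8.99) at 9 to 14 d. Its unloaded legs ran from 7.55 to 8.82 (median 8.21), stood at 8.82, 9.14, 9.29 and 9.24, and ran from 8.75 to 9.72 (median 9.25). Early and late legs met only in unloaded legs, where rat 35 at 8.82 was within the last window's range. The change at 9 to 14 d was 1.07 ± 0.13 in loaded legs (2.11-fold, limma adjusted p = 9.63e-07) and 1.10 ± 0.14 in unloaded legs (2.15-fold, 2.33e-06), and with the block it was 0.79 and 0.77, both past the threshold. Within code 3 it was 0.76 in loaded legs (0.0822) and 0.78 in unloaded legs (0.0423).

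Trim16, a protein recruited to damaged lysosomes, fell. In loaded legs Trim16 lay between 8.87 and 10.15 (median 9.37) at 6 h to 4 d, at 8.27, 7.61, 7.91 and 8.68 at 5 to 8 d, and between 7.42 and 8.89 (median 8.19) at 9 to 14 d. Unloaded legs lay between 8.34 and 10.11 (median 9.11), at 7.92, 8.73, 8.37 and 8.60, and between 7.97 and 8.73 (median 8.30). The 9 to 14 d legs overlapped the early ones slightly on the loaded and more widely on the unloaded side. The change at 9 to 14 d was -1.24 ± 0.20 in loaded legs (2.36-fold lower, limma adjusted p = 5.10e-05) and -0.90 ± 0.21 in unloaded legs (1.87-fold lower, 0.00223). With the block the loaded change was -1.12 and passed, and the unloaded change was -0.69 and did not (0.107). Within code 3 Trim16 likewise passed in loaded legs (-1.18, 0.0253) and not in unloaded legs (-0.73, 0.0681).

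Trim72, or MG53, a membrane repair protein of muscle, spread widely among rats. Its loaded legs ran from 8.14 to 10.24 (median 9.75) at 6 h to 4 d, stood at 8.53, 7.99, 7.84 and 8.06 at 5 to 8 d, and ran from 7.56 to 9.53 (median 9.11) at 9 to 14 d. Its unloaded legs ran from 8.03 to 10.54 (median 9.75), stood at 9.11, 10.15, 7.40 and 7.79, and ran from 7.66 to 10.09 (median 9.25). The windows overlapped throughout, with rats 35 and 37 lowest among the early legs on both sides. Trim72 passed once, in loaded legs at 5 to 8 d (-1.48 ± 0.34, 2.80-fold lower, limma adjusted p = 0.0026), and that call was lost with the block (-0.96, 0.201). The other changes were -0.74 in loaded legs (0.0619) and -0.51 in unloaded legs (0.303) at 9 to 14 d, and -0.96 in unloaded legs at 5 to 8 d (0.136).

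Of 2 Trim genes best known from antiviral defence, neither passed at 9 to 14 d. Trim25, which activates the RNA sensor RIG-I, changed by 0.03 in loaded legs (limma adjusted p = 0.895) and 0.32 in unloaded legs (0.230), and Trim21, a cytosolic antibody receptor, by -0.08 (0.775) and 0.29 (0.232). Unloaded Trim25 ran from 8.18 to 10.11 at 9 to 14 d, and the top value belonged to rat 49. A list of 14 interferon response genes stood beside them: 5 rose and 0 fell in loaded legs (median log2 change 0.35), and 10 rose and 0 fell in unloaded legs (1.03). Of all genes 19% rose and 11.8% fell in loaded legs, and 19.4% rose and 16.5% fell in unloaded legs. The list's mean value per array lay between 5.65 and 6.77 (median 6.45) in loaded legs at 9 to 14 d, against 5.71 to 6.26 (5.77) at 6 h to 4 d. In unloaded legs it lay between 6.06 and 9.77 (median 6.57), against 5.57 to 6.31 (5.87). The part of the interferon response in the values of Trim25 and Trim21 was not tested.

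Of the remaining Trim genes named by the rule, Trim28, or KAP1, a co-repressor of transcription, changed by 0.20 in loaded legs (limma adjusted p = 0.0747) and 0.23 in unloaded legs (0.0507). Trim32, mutated in a human limb-girdle dystrophy, passed in unloaded legs by 0.20 (0.0199) and not in loaded legs (0.08, 0.430), and the unloaded call was lost without rat 51 or 57, with the block and after cyclic loess. Trim44, which the rule did not name, rose at 9 to 14 d by 0.44 in loaded legs (limma adjusted p = 0.0032) and by 0.37 in unloaded legs (0.0137). Trim45 fell by 0.29 in unloaded legs (0.0201), and not without rat 47, 57 or 59, while its loaded change was -0.22 (0.120). Trim67, at the array medians, passed by -0.29 in loaded legs (0.0430) and by -0.31 in unloaded legs (0.0429), and lost those calls when any 1 of 10 rats in loaded or 11 rats in unloaded legs was left out.

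**Figure D3:**
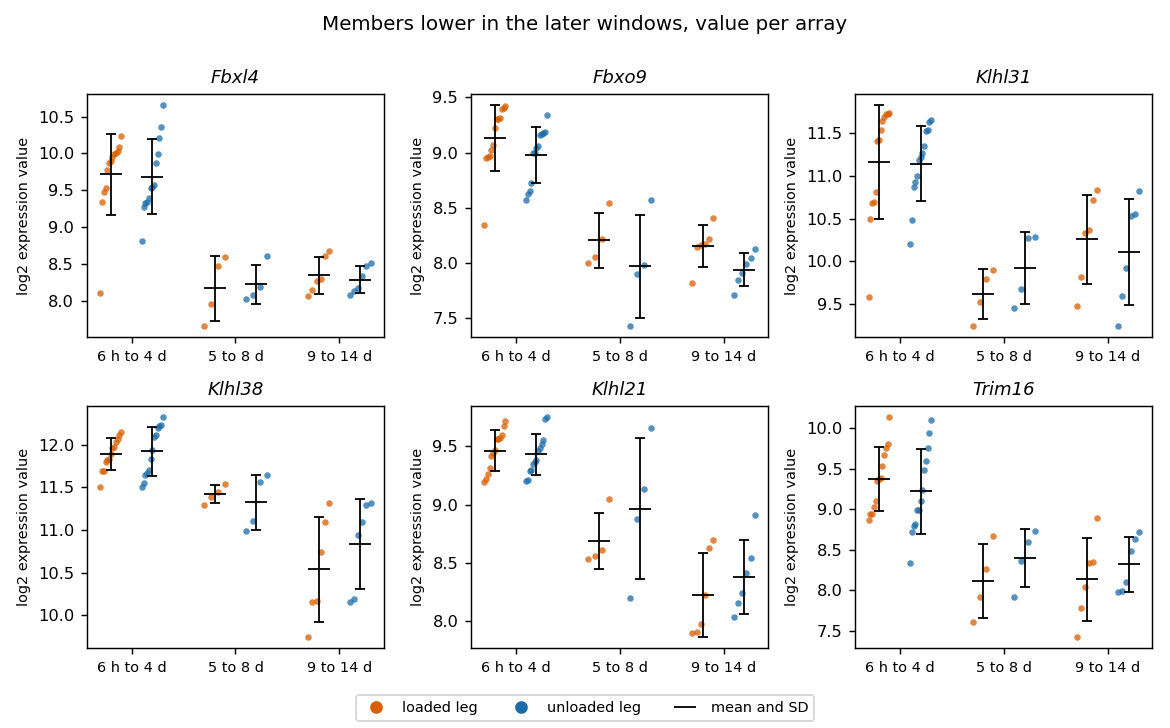
Log2 value of each array (y axis) of Fbxl4, Fbxo9, Klhl31, Klhl38, Klhl21 and Trim16 by window (x axis), loaded legs in orange left of unloaded legs in blue, with group means and SD bars. For Klhl38 and Klhl21 every leg at 9 to 14 d lies below every leg of the same side at 6 h to 4 d, and for Klhl31 the windows overlap.

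Among F-box genes, Fbxl4 and Fbxo9 fell by about 1 unit or more in both legs, and Fbxo4 rose by more than 1 unit in loaded legs at 5 to 8 d. Fbxl4 encodes a mitochondrial F-box protein that restrains mitophagy, the removal of mitochondria. In loaded legs Fbxl4 lay between 8.10 and 10.23 (median 9.90) at 6 h to 4 d, at 8.47, 8.59, 7.66 and 7.96 at 5 to 8 d, and between 8.07 and 8.68 (median 8.28) at 9 to 14 d. The unloaded values lay between 8.81 and 10.65 (median 9.55), at 8.02, 8.08, 8.19 and 8.60, and between 8.08 and 8.52 (median 8.26). No later unloaded leg reached an early one, and in loaded legs rat 37 at 8.10 was the early leg within the later range. The change at 5 to 8 d was -1.55 ± 0.25 in loaded legs (2.92-fold lower, limma adjusted p = 1.19e-04) and -1.46 ± 0.22 in unloaded legs (2.75-fold lower, 5.87e-05). By 9 to 14 d it was -1.37 ± 0.22 in loaded legs (2.59-fold lower, 4.11e-05) and -1.40 ± 0.19 in unloaded legs (2.63-fold lower, 6.82e-06). For Fbxl4 the block ended the loaded calls (-0.88 with adjusted p = 0.0945 at 5 to 8 d, -0.78 with 0.0562 at 9 to 14 d) and left the unloaded ones (-1.28 and -1.22). Within code 3 the change at 9 to 14 d did not pass in loaded legs (-0.85, 0.211) and passed in unloaded legs (-1.14, 0.0198).

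Fbxo9, an adaptor of SCF ligases, fell to a like extent in both later windows. Its loaded legs ran from 8.34 to 9.43 (median 9.22) at 6 h to 4 d, stood at 8.05, 8.00, 8.22 and 8.55 at 5 to 8 d, and ran from 7.82 to 8.40 (median 8.17) at 9 to 14 d. Its unloaded legs ran from 8.57 to 9.34 (median 9.04), stood at 7.91, 7.43, 7.98 and 8.57, and ran from 7.71 to 8.13 (median 7.95). At 9 to 14 d no unloaded leg overlapped the early ones, and in loaded legs rat 37 did. The change was -0.98 ± 0.13 in loaded legs (1.97-fold lower, limma adjusted p = 3.45e-06) and -1.04 ± 0.13 in unloaded legs (2.05-fold lower, 1.95e-06). Fbxo9 also passed with the block (-0.92 in loaded and -1.06 in unloaded legs) and within code 3 (-0.90 and -0.99).

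Further F-box genes passed in 1 or both legs. Fbxl17 fell by 0.62 in loaded legs (limma adjusted p = 9.58e-04) and by 0.42 in unloaded legs (0.0200) at 5 to 8 d, and at 9 to 14 d by 0.39 in loaded legs (0.00907), where the unloaded change was -0.22 (0.119). Fbxo4, an SCF adaptor, passed in loaded legs only, by 1.14 ± 0.22 at 5 to 8 d (2.20-fold, 6.69e-04) and by 0.64 ± 0.19 at 9 to 14 d (1.56-fold, 0.0139), beside unloaded changes of 0.70 (0.0643) and 0.47 (0.112). Fbxl22, which targets alpha-actinin at the Z-disc in the heart, was below the array median on most arrays; its log2 change at 9 to 14 d was -0.16 in loaded legs (0.297) and -0.32 in unloaded legs (3.76e-04), and no fold is given for so dim a probe set. Fbxw8, which joins Cul7, rose by 0.39 in loaded legs (0.0185) and changed by 0.26 in unloaded legs (0.0784). Fbxo7, whose human gene is mutated in a form of parkinsonism, changed by 0.11 in loaded legs (0.634) and 0.06 in unloaded legs (0.824) at 9 to 14 d.

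Small or dim rises were Fbxo33 (0.37 in loaded legs with adjusted p = 0.0117, 0.38 in unloaded legs with 0.00397), Fbxo22 (0.22 with 0.0157, 0.24 with 0.0134) and Fbxo17 (0.51 with 0.00108, 0.44 with 0.0246, by limma). Fbxo17 lay at the array medians, passed with the block and within code 3 in both legs, and lost its unloaded call without rat 45, 47, 49 or 51. Fbxw17 changed by 0.58 in loaded legs (0.00118) and 0.61 in unloaded legs (0.00311), and Fbxo48 by 0.56 (0.00178) and 0.48 (0.0162). Both were near or below the array medians, and both calls of Fbxo48 were lost with the block. Falls of this kind in unloaded legs were Fbxl16 (-0.47, 0.00361), Fbxo2, a glycan-binding F-box protein (-0.33, 0.00653), and Fbxo8 (-0.30, 0.0213, not without rat 51). Their loaded changes of -0.22, -0.15 and -0.17 did not pass.

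Of the 34 members that never or seldom rose above the array median, a larger share rose than among all dim genes. A like share fell. These differences rest on few genes and were not tested. In loaded legs 3 of them rose and 2 fell at 9 to 14 d (median log2 change -0.05), beside 2.65% higher and 7.18% lower among the 5028 dim genes of the table (median -0.09). In unloaded legs 5 rose and 6 fell (median -0.09), beside 3.32% higher and 16.7% lower among dim genes (median -0.13). After cyclic loess normalisation 4 rose and 0 fell in loaded legs, and 5 rose and 1 fell in unloaded legs, so dim members gave fewer falls under that scaling. The shares of all dim genes under it are not given here. Of the 82 brighter members, 19 rose and 10 fell in loaded legs and 17 and 17 in unloaded legs, beside 2585 rises and 1334 falls in loaded and 2607 and 1525 in unloaded legs among the 9289 brighter genes.

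**Figure D4:**
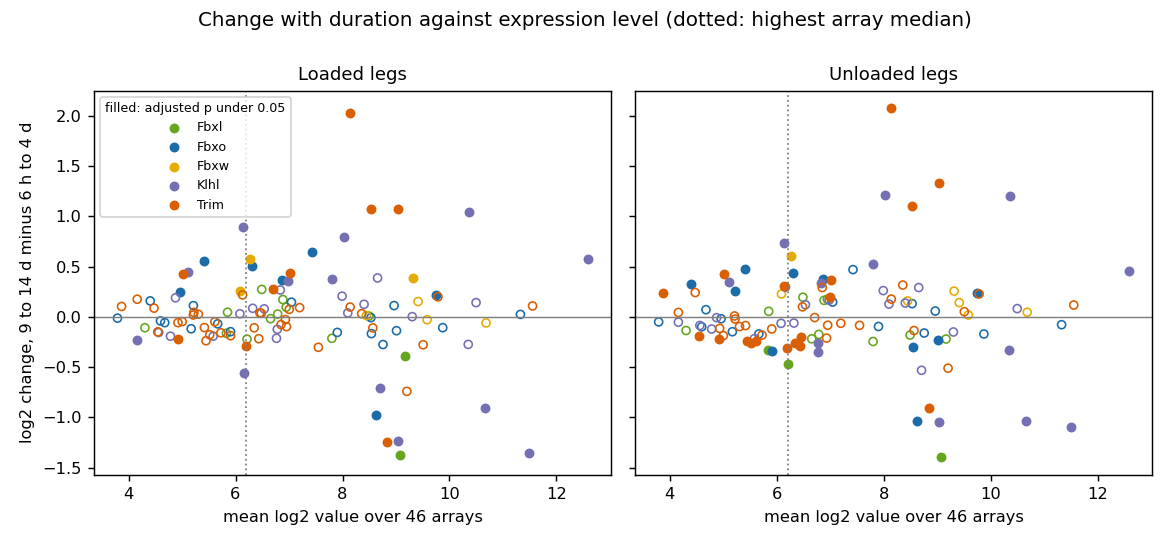
Log2 change from 6 h to 4 d to 9 to 14 d (y axis) of each member against its mean log2 value over the 46 arrays (x axis), loaded legs in the left panel and unloaded legs in the right one; filled points passed an adjusted p of 0.05 and the dotted line marks the highest array median, 6.20. Changes past 1 unit in size belong to genes right of the dotted line.

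Several calls were made in 1 leg only: 11 in loaded legs and 22 in unloaded legs at 9 to 14 d. Of the members 29.3% passed in loaded legs, 38.8% in unloaded legs and 19.8% in both in the same direction. The shares of all genes were 30.8%, 35.9% and 24%. This does not show that the legs differ. The change with duration was compared between legs directly, as the loaded minus unloaded difference at a later window minus that at 6 h to 4 d. No member passed at 5 to 8 d or at 9 to 14 d by limma, where 0% of all genes passed in either comparison. Before adjustment 4 members had a p under 0.05 at 5 to 8 d (3.45% beside 4.91% of all genes). At 9 to 14 d 7 did (6.03% beside 6.96%). Klhl25, an adaptor for the translation repressor 4E-BP1 in human cells, came nearest. Its leg difference was 0.85 lower at 9 to 14 d than at 6 h to 4 d (-0.85 ± 0.19, unadjusted p = 1.20e-04, adjusted p = 0.374). Its probe set lay near the array medians, at 5.90 ± 0.13 in loaded and 6.31 ± 0.22 in unloaded legs at 9 to 14 d (SD, n = 6), and at 6.45 ± 0.38 and 6.01 ± 0.32 at 6 h to 4 d (n = 13).

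Between the legs of the same rats, 2 of the 116 genes passed over all 23 rats, 1 higher and 1 lower in loaded legs. That is 1.72% of the members, beside 0.929% of all genes (0.3% higher and 0.629% lower), and at an unadjusted p under 0.05 the members gave 14, or 12.1%, beside 15.3% of all genes. The median difference was 0.02 for the members and 0.01 for all genes. Legs were paired by consecutive label numbers, and that pairing is inferred.

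The gene that was higher in loaded legs was Fbxw2, an SCF adaptor. Its leg difference, loaded minus unloaded, ran from -0.18 to 0.46 (median 0.16) at 6 h to 4 d, stood at 0.29, 0.43, 0.15 and -0.09 at 5 to 8 d, and ran from 0.04 to 0.35 (median 0.14) at 9 to 14 d. The loaded leg was higher in 20 of 23 rats, including all 6 rats at 9 to 14 d. The mean difference was 0.18 ± 0.04 (SE, 1.13-fold, limma adjusted p = 0.0206). Mean values were 9.40, 9.74 and 9.56 in loaded legs over the windows in order of time, against 9.23, 9.55 and 9.37 in unloaded legs. Within code 3 the difference was 0.22 and did not pass (0.270), and without the rat as a block it did not pass.

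Trim8 was lower in loaded legs, while it rose with duration on both sides. Its leg difference ran from -0.45 to 0.18 (median -0.24) at 6 h to 4 d, stood at -0.12, 0.20, -0.13 and -0.40 at 5 to 8 d, and ran from -0.33 to -0.10 (median -0.18) at 9 to 14 d. The loaded leg was lower in 19 of 23 rats and in all 6 rats at 9 to 14 d. The mean difference was -0.18 ± 0.04 (1.13-fold lower, limma adjusted p = 0.0288), small beside the change of about 1 unit with duration. Within code 3 it was -0.14 (0.476), and it passed neither without the 6 rats whose pairing is least certain nor without the rat as a block.

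Next in order over all rats were Fbxo34 (0.19, adjusted p = 0.0733, higher in 19 of 23 rats), Fbxo9 (0.18, 0.0745, higher in 17) and Trim54 (0.10, 0.110, higher in 19), none of which passed in limma. No member passed within a single window. Before adjustment 13 members had a p under 0.05 at 6 h to 4 d (11.2% beside 9.87% of all genes). At 5 to 8 d 5 did (4.31% beside 5.53%), and at 9 to 14 d 13 did (11.2% beside 11.6%). Of all genes 0%, 0% and 0.119% (0.0698% higher and 0.0489% lower) passed in these windows. At 9 to 14 d the members with the smallest p included Fbxo36 (0.30, adjusted p = 0.249), Klhl25 (-0.41, 0.306, lower in 6 of 6 rats), Klhl8 (-0.41, 0.324) and Fbxl5, an iron-sensing F-box protein (0.20, 0.328, higher in 6 of 6 rats).

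**Figure D5:**
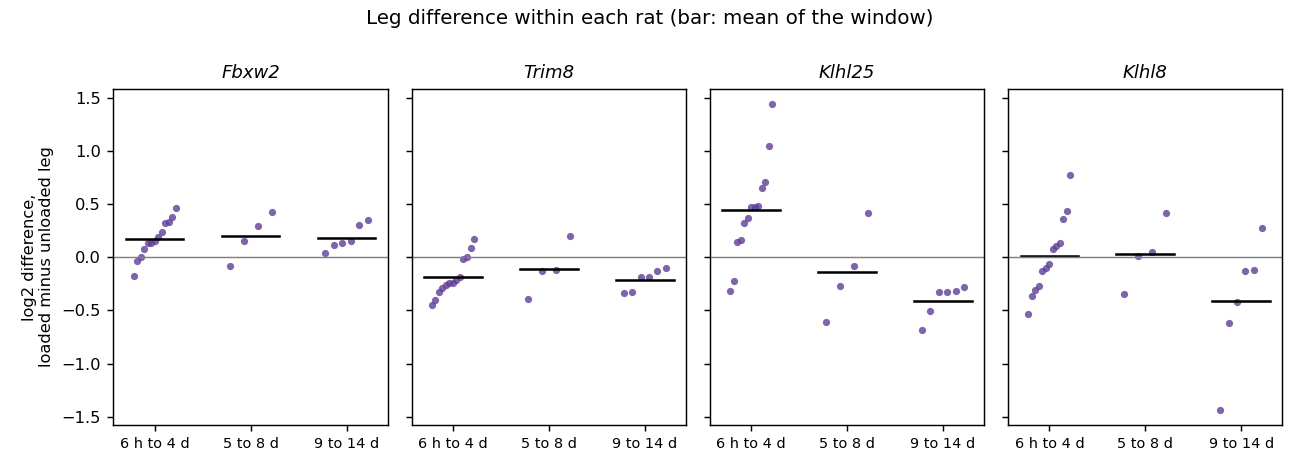
Loaded minus unloaded log2 difference of each rat (y axis) for Fbxw2, Trim8, Klhl25 and Klhl8 by window (x axis), with the mean of each window as a bar. All 6 rats at 9 to 14 d lie above 0 for Fbxw2 and below 0 for Trim8 and Klhl25, while for Klhl25 11 of 13 rats at 6 h to 4 d lie above 0.

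Shared parts of the cullin ligases changed too. A list of 28 measured genes covered cullins, their NEDD8 modification, the COP9 signalosome and adaptor exchange. In loaded legs at 9 to 14 d, 8 rose and 4 fell (median log2 change 0.05), and in unloaded legs 11 rose and 3 fell (0.11). Of all genes 19% rose and 11.8% fell in loaded legs (median -0.03), and 19.4% rose and 16.5% fell in unloaded legs (-0.06). At 5 to 8 d 14 rose and 1 fell in loaded legs (median 0.26) and 10 rose and 1 fell in unloaded legs (0.27). Of all genes 16.8% rose and 8.27% fell in loaded legs, and 14.6% rose and 8.03% fell in unloaded legs (median -0.03 in both legs). The differences from all genes were not tested. These counts, and the changes of single genes at 9 to 14 d that follow, are not given with the date code as a block or within code 3. Cand1, which exchanges the adaptors of Cul1, rose by 0.78 ± 0.14 in loaded legs (1.72-fold, limma adjusted p = 1.04e-04) and by 0.76 ± 0.08 in unloaded legs (1.69-fold, 2.86e-07). Its relative Cand2 changed by -0.29 (0.0598) and -0.34 (0.0217). Cul4b rose by 0.46 in loaded legs (0.0130) and 0.59 in unloaded legs (0.00318), and Cul5 fell by 0.45 in loaded legs (1.96e-04) and by 0.38 in unloaded legs (6.01e-04). The scaffold of the Kelch-like ligases, Cul3, changed by -0.27 in loaded legs (0.00157) and by -0.24 in unloaded legs (0.0778), and the scaffold of the F-box ligases, Cul1, by 0.03 (0.853) and -0.11 (0.564). The RING partner Rbx1 rose by 0.28 in loaded legs (0.0183) and by 0.43 in unloaded legs (8.99e-04), and Skp1 changed by 0.13 (0.468) and 0.24 (0.0431). None of the 28 passed between legs over all rats, where 0.929% of all genes did.

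Family relatives with other symbols held 1 large fall. Klhdc3, a Kelch protein that brings targets to Cul2, fell by 1.48 ± 0.15 in loaded legs (2.79-fold lower, limma adjusted p = 1.87e-07) and by 1.41 ± 0.12 in unloaded legs (2.65-fold lower, 6.18e-09) at 9 to 14 d. The other 13 measured Kelch and BTB genes of this list gave 3 rises in each leg, where 19% of all genes rose in loaded and 19.4% in unloaded legs. Klhdc10 changed by 0.60 in loaded (limma adjusted p = 1.63e-04) and 0.47 in unloaded legs (4.17e-04). Klhdc2 changed by 0.49 (0.00108) and 0.45 (8.89e-04). Of 2 measured partners of the muscle Kelch proteins, Nrap changed by -0.19 in loaded legs (0.125) and by -0.43 in unloaded legs (0.0404), and Lmod2 by 0.46 (0.274) and -0.18 (0.560).

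Of the 4 muscle ligase genes left out of the list, Fbxo30 rose in both legs at 9 to 14 d, by 1.33 ± 0.33 in loaded (2.52-fold, limma adjusted p = 0.00301) and 1.00 ± 0.28 in unloaded legs (1.99-fold, 0.00762). Fbxo32, or atrogin-1, changed by -0.31 in loaded legs (0.0917) and by -0.12 in unloaded legs (0.478), and Trim63, or MuRF1, by -0.44 (0.160) and -0.37 (0.373). Against rats already paralysed for 6 h to 4 d, Fbxo32 and Trim63 did not pass, while Trim55 and Fbxo30 did.

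Some markers of other cells also differed between 9 to 14 d and 6 h to 4 d. In that comparison 19% of all genes rose and 11.8% fell in loaded legs, and 19.4% rose and 16.5% fell in unloaded legs. The lists are short, and their counts were not tested against these shares. They are not given with the date code as a block or within code 3. Of 4 satellite cell genes 3 rose and 1 fell in each leg (median log2 change 1.30 in loaded and 1.44 in unloaded legs), with a mean value per array between 7.68 and 8.89 in loaded legs at 9 to 14 d, against 7.05 to 8.05 at 6 h to 4 d, and between 8.03 and 8.78 in unloaded legs, against 6.91 to 8.04. Of 10 macrophage genes 3 rose in loaded legs (median 0.52) and 5 in unloaded legs (0.75) and none fell, with means between 7.36 and 9.43 in loaded legs at 9 to 14 d, against 7.30 to 8.63 at 6 h to 4 d, and between 7.67 and 9.89 in unloaded legs, against 7.34 to 8.45. Muscle fibre genes gave 0 rises and 5 falls of 7 in each leg (median -0.25 on both sides), with means between 13.25 and 13.50 in loaded legs at 9 to 14 d, against 13.28 to 13.77 at 6 h to 4 d, and between 13.17 and 13.44 in unloaded legs, against 13.40 to 13.78. T and B cell genes gave 1 rise of 7 in loaded legs and 2 in unloaded legs, and 4 of the 7 stayed below the array median on all arrays; neutrophil genes gave 1 fall of 5 in loaded legs and none in unloaded legs, and 2 of the 5 stayed below it. Fibroblast genes gave 2 falls of 7 in loaded legs and 3 in unloaded legs and no rise (medians -0.26 and -0.24), with Col1a1, a collagen gene, at -1.50 and -1.80. The 3 tendon genes gave 1 rise and 2 falls in loaded legs and 1 rise in unloaded legs, with Scx at 1.27 and 1.15 and Fmod at -1.61 and -1.01, the last of which did not pass. Smooth muscle and pericyte genes gave 2 falls of 5 in each leg (medians -0.15 and -0.35), endothelial genes 1 fall of 4 in each leg, adipocyte genes 0 falls of 5 in loaded and 1 in unloaded legs, and Schwann cell genes 0 rises of 4 in loaded and 1 in unloaded legs.

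At 5 to 8 d against 6 h to 4 d the same lists gave other counts. Of all genes 16.8% rose and 8.27% fell in loaded legs, and 14.6% rose and 8.03% fell in unloaded legs. Between 9 to 14 d and 5 to 8 d, no gene of the lists named in this paragraph passed in either leg. The counts therefore do not show that the later windows differ. Macrophage genes gave 2 falls of 10 and no rise in each leg (median -0.40 in loaded and -0.48 in unloaded legs). Fibroblast genes gave 3 falls of 7 in loaded legs and 5 in unloaded legs (-1.14 and -1.43), and tendon genes 2 falls of 3 in each leg, with 1 rise in unloaded legs (-1.37 and -1.52). Satellite cell genes gave 2 rises of 4 in each leg (0.75 and 0.91), muscle fibre genes 1 fall of 7 in loaded and 2 in unloaded legs (-0.10 and -0.36), smooth muscle and pericyte genes 1 and 3 falls of 5 (-0.33 and -0.56), and interferon response genes 2 and 1 rises of 14 (0.16 and 0.11). The part of these cells in the members' changes was not tested.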

How the data were processed

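Muscle RNA of 46 legs was measured on Affymetrix arrays. The authors deposited log2 expression values for each probe set, made with RMA (robust multi-array averaging: background correction, quantile normalisation and probe summary) per the submitters' processing notes, version not given in the sources used here. Values ran from 1.92 to 14.38 over 26208 probe sets. Quantile normalisation would partly remove a shift of most transcripts in 1 direction, and no detection call was used.

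The platform annotation gave 15088 probe sets 1 symbol (14317 genes), 323 several and 10797 none. Symbols can be old, and all 116 members matched RefSeq by gene ID. All 14317 genes entered each limma fit (version 3.58.1 under R 4.3.3, lmFit and eBayes) with Benjamini-Hochberg adjustment and a threshold of 0.05. Windows were compared within loaded and within unloaded legs, each in 1 fit over 23 arrays. Legs were compared in 1 fit over 46 arrays with the rat as a fixed block. Recovery was simulated with 100 changed genes of each size. In unloaded legs, last window against early one, the fit recovered 63% of changes of 0.5 and 95% of changes of 1 log2 unit. For loaded against unloaded legs over all 23 rats it recovered 94% and 100%. Windows in loaded legs, the middle window, legs within a single window and leg differences between windows were not simulated. These percentages therefore do not tell how many changes those comparisons would miss. Figures were drawn with matplotlib 3.10.9 in Python 3.11.15.

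Each odd-numbered unloaded leg was paired with the loaded leg numbered next where window and date code matched. A rat's legs deviated together from their group means, with a correlation above 0.1, in 21 of 23 rats (median 0.54), with rats 17 (0.08) and 27 (-0.28) as exceptions. Legs of different rats can also correlate. Of all loaded legs, the assigned partner was the best match for 15 of the 23 unloaded legs. Of all unloaded legs, it was the best match for 14 of the 23 loaded legs. The pairing was therefore not settled by these values. Replicates are separate rats, and the exact durations of single rats were not used.

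Alternatives were an expression filter (above the array median on at least 4 arrays), an intensity trend, array weights, cyclic loess, the mean of a gene's probe sets, the date code as a block or code 3 alone, 1 fit with a random rat block, no rat block, and leaving out rats. The named members were, per family, the 3 largest rises and 3 largest falls among calls in unloaded legs at 9 to 14 d; the 4 largest each way at 5 to 8 d and between the later windows (where none passed); those passing between legs or with the 5 smallest p-values over all rats and at 9 to 14 d; and a list of muscle-related and widely studied genes. Members named outside this rule, such as Trim44, Klhl1, Klhl12, Klhl20, Klhl24, Klhl26, Klhl36, Klhl42, Fbxl17, Fbxo4, Fbxo22 and Fbxw8, were chosen after their values were seen. Members, lists and tests were chosen with earlier results of these data known. Fbxo40, Fbxw7, Fbxo31, Klhl30, Klhl33 and Klhl34 were not analysed here.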

Additional observations from a re-analysis of the deposited data

Results flagged for a closer look

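Among 148 groups of 4 or 6 legs of the named genes, 7 held 1 leg far from the others by Dixon's test, where chance alone would give about 1 in 20. In loaded legs at 5 to 8 d, Fbxo34 reached 9.11 in rat 53 with the next leg at 8.80, and Klhl21 reached 9.05 in rat 43 with the next at 8.61. In unloaded legs at 5 to 8 d, rat 43 was also highest for Klhl23, at 9.06 with the next at 7.56, and for Trim45, at 6.77 with the next at 6.14. In unloaded legs at 9 to 14 d, Klhl40 reached 11.59 in rat 57 with the next at 11.10. Rat 49 of the same group was highest for Trim25, at 10.11 with the next at 8.76, and lowest for Trim67, at 5.58 with the next at 5.99. The interferon response list also reached its highest mean in that group, at 9.77. The part of single rats in these values was not tested beyond leaving out each rat.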

How the results depend on the processing

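None of the calls of the 37 members named by the rule changed direction under the alternatives run, members named outside it were not run singly, and the counts of members called that moved by over 1.5 times were as follows. In unloaded legs at 5 to 8 d, where 22 passed, array weights gave 45, the date code as a block 8 and code 3 alone 0. In unloaded legs at 9 to 14 d, where 45 passed, the block gave 23 and code 3 gave 9. For unloaded legs at 9 to 14 d against 5 to 8 d, array weights gave 10 in place of 0. In loaded legs the block gave 9 and code 3 gave 0 in place of 30 at 5 to 8 d, and 16 and 5 in place of 34 at 9 to 14 d. Between legs over all rats code 3 gave 0 and the fit with no replicate block gave 0 in place of 2. The pairing behind the replicate block is inferred, and the shares of all genes under these alternatives are not given here. Leaving out 1 rat at a time gave 12 to 27 members in unloaded legs at 5 to 8 d (12 without rat 53, 14 without rat 55) and 31 to 48 at 9 to 14 d. It gave 22 to 36 in loaded legs at 5 to 8 d and 29 to 38 at 9 to 14 d. For 9 to 14 d against 5 to 8 d it gave 0 to 1 in unloaded legs (1 without rat 43, 45 or 57) and 0 to 1 in loaded legs (1 without rat 43, 45 or 47). Between legs it gave 2 to 3 over all rats (3 without rat 37) and 0 to 0 in single windows and for differences between windows. Cyclic loess changed the split of higher and lower calls to 9 and 13 in unloaded legs at 5 to 8 d, in place of 12 and 10, and to 19 and 18 in loaded legs at 9 to 14 d, in place of 22 and 12. The family median of the Fbxw genes in unloaded legs was 0.27 at 5 to 8 d, but -0.0091 in code 3 and 0.047 with the block, and 0.16 at 9 to 14 d, but -0.015 in code 3 and -0.043 with the block. That of the Trim genes was 0.052 with the expression filter in unloaded legs at 9 to 14 d, in place of -0.07, and 0.055 with the filter, 0.051 in code 3 and 0.050 with the block in loaded legs at 5 to 8 d, in place of -0.04. The loaded legs of rats 21 and 27 lay closer to each other than any other arrays (root mean square difference 0.181, where the closest same-rat legs differed by 0.195 and the median of all pairs was 0.531). Without both rats, a setting chosen after seeing the data, 3 members passed between legs. The windows of 4 and 6 rats limit precision, and the arrays give no signal over background for dim members.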
